A study of Homo sapiens with 18 samples.

Results

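Interferon-stimulated genes and RNA sensors were examined in 2 human neuroblastoma cell lines, SK-N-BE(2) and CHLA-90, after silencing of ERK5, a MAP kinase (gene MAPK7). The set was a list of 43 genes given by symbol, and 42 of them had a probe among the 17687 named genes of the arrays, each with 1 probe. STAT2 was not analysed here. Cells, at 250000 per well, received lentiviral supernatant from HEK-293T cells with the pLKO vector encoding shERK5-4, shERK5-5 or the control hairpin shNSC, and RNA was taken 72 hours later. There were 3 biological replicates in each of 6 groups: SK-N-BE(2) with shERK5-4, with shERK5-5 and with shNSC, and CHLA-90 with the same 3 hairpins. SK-N-BE(2) carries amplified MYCN and CHLA-90 does not. All 6 groups, controls included, had thus been transduced with a vector that makes a hairpin RNA, and untransduced cells were not analysed here. Every value below is a log2 signal of a whole-transcript array, and every change is a difference of log2 signals.

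Type I interferons bind the receptor pair IFNAR1 and IFNAR2. The kinases JAK1 and TYK2 on its inner side then pass the signal on, and a complex that holds IRF9 binds the interferon-stimulated response element of target genes. The products of these genes block viruses at many steps, and several of them are sensors that start the response: RIG-I (RIGI) and MDA5 (IFIH1) detect foreign RNA in the cytosol and signal through MAVS, TLR3 detects it in endosomes, and the kinase PKR (EIF2AK2) stops translation. Hairpin RNAs and viral vectors can set off this response in some cells, so these genes are often read beside a silencing experiment.

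The members that rose with shERK5-4 in both lines were IFI44, IRF9, PARP9, SAMD9, SAMD9L and TLR3, and PARP14 was the only member that fell with shERK5-5 in both. To show what precedes these 7 genes, the 250 bases before their start sites are given 5′ to 3′ on the gene's strand, from RefSeq's table on GRCh38.p14. The core of the response element, GAAA and again GAAA with any 2 bases between them, was searched on both strands, and capitals mark each match (on the other strand it reads TTTC, 2 bases, TTTC). Where the table gives a gene several start sites, the window with the most matches is shown.
SAMD9L, chr7:93148386-93148635, - strand: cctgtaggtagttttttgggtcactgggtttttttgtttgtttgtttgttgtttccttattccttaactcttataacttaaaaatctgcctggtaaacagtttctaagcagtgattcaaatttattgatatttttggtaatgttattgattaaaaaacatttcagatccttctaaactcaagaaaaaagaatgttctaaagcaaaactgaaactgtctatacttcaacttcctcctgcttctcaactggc
SAMD9, chr7:93117980-93118229, - strand: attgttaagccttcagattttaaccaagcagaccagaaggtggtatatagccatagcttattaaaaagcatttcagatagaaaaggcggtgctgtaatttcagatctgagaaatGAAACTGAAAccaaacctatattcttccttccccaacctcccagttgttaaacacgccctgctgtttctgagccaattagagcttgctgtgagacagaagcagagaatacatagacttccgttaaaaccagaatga
PARP9, chr3:122564301-122564550, - strand: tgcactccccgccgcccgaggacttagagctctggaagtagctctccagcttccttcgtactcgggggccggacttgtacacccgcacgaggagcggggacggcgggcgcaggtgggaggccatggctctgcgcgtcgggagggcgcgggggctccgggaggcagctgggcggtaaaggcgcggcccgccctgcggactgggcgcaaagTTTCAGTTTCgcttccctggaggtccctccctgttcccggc
IRF9, chr14:24161015-24161264, + strand: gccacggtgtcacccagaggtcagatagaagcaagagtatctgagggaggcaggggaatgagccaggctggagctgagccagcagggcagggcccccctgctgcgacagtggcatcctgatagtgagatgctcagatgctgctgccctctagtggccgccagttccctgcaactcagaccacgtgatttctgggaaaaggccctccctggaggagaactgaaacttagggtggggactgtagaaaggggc
TLR3, chr4:186068906-186069155, + strand: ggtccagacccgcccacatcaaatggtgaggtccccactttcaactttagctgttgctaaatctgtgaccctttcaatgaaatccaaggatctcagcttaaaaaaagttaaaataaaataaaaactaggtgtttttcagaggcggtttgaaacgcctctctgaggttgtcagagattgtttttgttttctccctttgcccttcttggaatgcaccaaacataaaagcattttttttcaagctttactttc
IFI44, chr1:78649539-78649788, + strand: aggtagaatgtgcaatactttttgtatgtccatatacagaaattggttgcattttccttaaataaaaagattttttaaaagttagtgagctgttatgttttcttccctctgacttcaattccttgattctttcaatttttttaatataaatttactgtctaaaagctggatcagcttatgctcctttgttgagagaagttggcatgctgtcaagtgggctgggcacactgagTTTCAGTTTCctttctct
PARP14, chr3:122680589-122680838, + strand: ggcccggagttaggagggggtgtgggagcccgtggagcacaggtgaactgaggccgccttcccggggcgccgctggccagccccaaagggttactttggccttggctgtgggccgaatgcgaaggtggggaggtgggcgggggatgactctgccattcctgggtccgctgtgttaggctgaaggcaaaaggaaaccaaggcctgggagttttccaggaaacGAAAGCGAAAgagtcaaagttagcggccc
The motif began 136 bases before the start of SAMD9, 41 before that of PARP9, 18 before that of IFI44 and 29 before that of PARP14. PARP9 and IFI44 had 2 start sites each, and the motif lay before 1 of those of PARP9 and before both of those of IFI44. The windows of SAMD9L, IRF9 and TLR3 did not hold these letters. Windows were given for 34 of the 43 listed genes, and 21 of them (61.8%) held the motif, against 3.71% of all genes with a window. Its share was 64.7% of the 17 members called with any hairpin and 62.5% of the 16 called with none (STAT2, the remaining one, had no probe). A match describes the sequence and does not show binding.

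The 18 arrays carried 21448 probes, with array medians of 5.63 to 5.69 in SK-N-BE(2) and 6.35 to 6.43 in CHLA-90. MAPK7 fell in every hairpin group, with log2 changes for shERK5-4 and shERK5-5 of -0.69 and -0.64 in SK-N-BE(2), while those in CHLA-90 were -1.07 and -0.99 (limma, adjusted p between 0.000329 and 0.0319). In SK-N-BE(2) the adjusted p became 0.061 for shERK5-4 and 0.149 for shERK5-5 once shNSC replicate 1 was left out, and shERK5-5 also missed the threshold when shNSC replicate 3 (0.11) or its own replicate 1 (0.0833) or 2 (0.123) was. Of 9 measured adrenergic neuroblastoma markers, 9 lay above the array median in CHLA-90 and 8 in SK-N-BE(2), where DBH lay below it. PTPRC and NKG7, 2 of 8 measured blood and immune cell markers, lay above it in SK-N-BE(2) but none (0) in CHLA-90, and fibroblast genes lay above it in both lines (5 of 6 in CHLA-90 and 6 of 6 in SK-N-BE(2)). In such bulk RNA, fewer cells that express a gene and less of its RNA per cell cannot be told apart. The arrays give no detection calls, and 9 members had a mean signal below the 25 percentile of all probes.

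The set did not move as a block. With shERK5-4 in SK-N-BE(2), 11 of 42 members passed an adjusted p of 0.05 by limma (26.2%), 9 higher and 2 lower, where 23.9% of all probes passed (12.2% higher and 11.7% lower). In CHLA-90 the same hairpin gave 11 of 42, 10 higher and 1 lower, against 18.3% of all probes (10.0% higher and 8.25% lower). With shERK5-5, 4 members passed in SK-N-BE(2), 3 higher and 1 lower (9.52%, against 12.8% of all probes, 6.76% higher and 6.07% lower). In CHLA-90 4 members passed with shERK5-5, 0 higher and 4 lower (9.52%, against 12.7% of all probes, 5.85% higher and 6.84% lower). The median change of the members, with that of all probes after it, was 0.02 beside 0.01 with shERK5-4 in SK-N-BE(2), and 0.11 beside 0.01 in CHLA-90. With shERK5-5 it was -0.025 beside -0.0033 in SK-N-BE(2), and 0.02 beside 0.05 in CHLA-90. The share called was thus close to that of all probes with shERK5-4 in SK-N-BE(2), above it in CHLA-90, and somewhat below it with shERK5-5 in both lines. The mean of the hairpins against shNSC called 8 members in SK-N-BE(2) (17.0% of all probes passed) and, in CHLA-90, 7 (11.9%). The 3 arrays of a hairpin did not overlap the 3 shNSC arrays, with shERK5-4, in 17 members in SK-N-BE(2) (40.5%, against 32.7% of all probes) and likewise 17 in CHLA-90 (against 37.5%). With shERK5-5 there were 10 such members (23.8%, against 30.0%) in SK-N-BE(2), while CHLA-90 had 8 (19.0%, against 26.8%). In all, 18 members were called with at least 1 hairpin in a line (42.9%, against 39.7% of all probes) and 24 with none. Both hairpins called 2 members alike in SK-N-BE(2), IFI44L and TLR3 (4.76%, against 5.21% of all probes), and 0 in CHLA-90 (3.51% of all probes). No member (0) was called alike by both hairpins in both lines by limma, where 276 probes (1.29% of all) were.

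**Figure D1:**
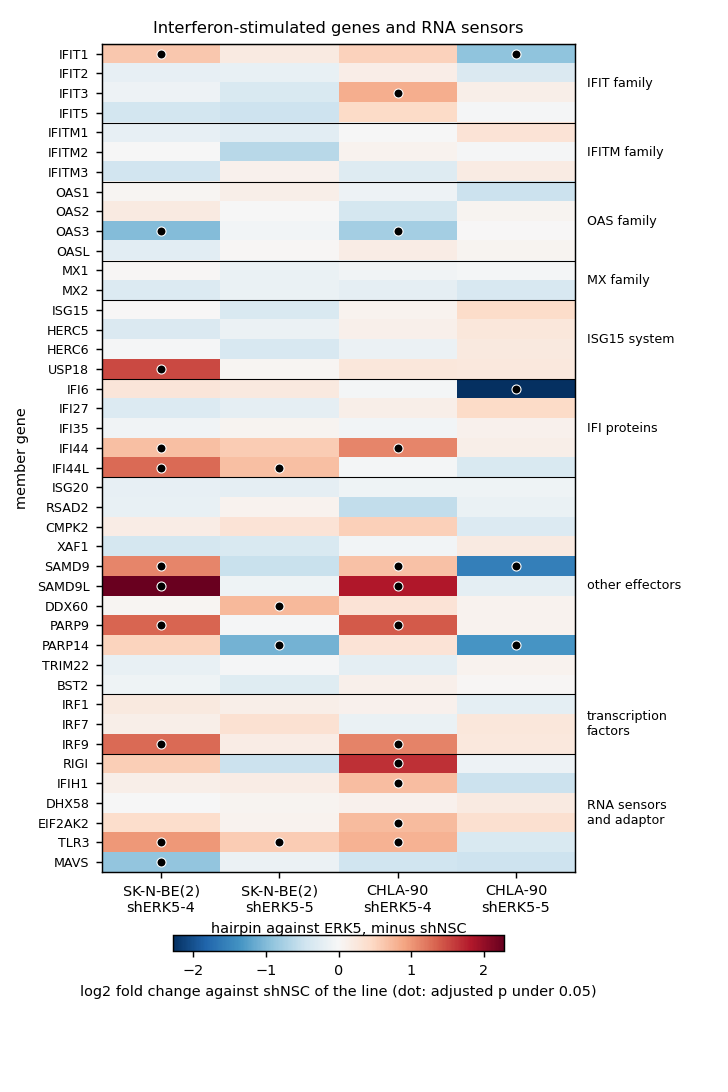
Log2 fold change of the 42 members (rows, grouped by role) with each hairpin against the shNSC arrays of the same line (columns), with dots where the adjusted p was under 0.05. The columns of shERK5-4 hold 11 dots in each line and those of shERK5-5 hold 4 in each, and no row of the IFITM and MX families has a dot.

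Among the RNA sensors and the adaptor MAVS, shERK5-4 moved 5 of the 6 genes in at least 1 line, where 31.3% of all probes passed in at least 1 line. RIGI (probe TC0900009825.hg.1) had log2 signals of 7.73, 7.38 and 7.07 with shERK5-4 in CHLA-90, and 5.49, 5.99 and 5.38 with shERK5-5, against 5.8, 6.09 and 5.31 with shNSC. All 3 shERK5-4 arrays lay above all 6 others of the line, and the change against shNSC was 1.66 ± 0.25 (SE, adjusted p = 3.13e-05), or 3.16-fold. In SK-N-BE(2) its values were 5.01, 4.92 and 4.88 with shERK5-4, and 4.23, 4.03 and 3.38 with shERK5-5, against 4.26, 4.09 and 4.78 with shNSC. The shERK5-4 arrays again lay above the shNSC arrays, but the change of 0.56 ± 0.25 did not pass (adjusted p = 0.114). The difference between the lines in the RIGI change was 1.10 (95% confidence interval 0.376 to 1.82) and also missed the threshold (adjusted p = 0.0594), though it passed with dim probes left out (0.0495). Without SK-N-BE(2) shNSC replicate 3, RIGI passed in that line too (0.76, adjusted p = 0.0452).

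TLR3 (TC0400009543.hg.1), the endosomal sensor, had 5.53, 5.29 and 5.41 with shERK5-4 in SK-N-BE(2), and 5.02, 5.13 and 4.9 with shERK5-5, against 4.35, 4.11 and 4.83 with shNSC. Both hairpin groups lay above the controls without overlap, with changes of 0.98 ± 0.19 (adjusted p = 0.000504) and 0.59 ± 0.19 (0.0493). The shERK5-5 call rested on few arrays. It was lost without shNSC replicate 1 (adjusted p = 0.146) or 2 (0.27), without shERK5-5 replicate 1 (0.117), 2 (0.163) or 3 (0.0736), and without 7 arrays of other groups in turn, with the replicate block, with the line fitted alone and with trend and robust estimation. In CHLA-90 TLR3 had 4.82, 5.04 and 5.17 with shERK5-4, and 3.64, 4.12 and 3.9 with shERK5-5, against 4.45, 3.92 and 4.31 with shNSC. There it rose with shERK5-4 (0.78 ± 0.19, adjusted p = 0.00559), while with shERK5-5 the change was -0.34 ± 0.19 (adjusted p = 0.284).

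EIF2AK2 had 14.35, 14.62 and 14.33 with shERK5-4 in CHLA-90, and 14.19, 14.08 and 13.98 with shERK5-5, against 13.78, 13.79 and 13.57 with shNSC. Both hairpin groups lay above the controls, and the change with shERK5-4 passed (0.72 ± 0.15, adjusted p = 0.00123), while that with shERK5-5 did not (0.37, adjusted p = 0.113). In SK-N-BE(2) the shERK5-4 change was 0.39 (adjusted p = 0.0612), and it passed with dim probes left out (0.0486) and with trend and robust estimation (0.0253). IFIH1, a probe below the 25 percentile, had 4.76, 5 and 4.78 with shERK5-4 in CHLA-90, and 4.19, 3.1 and 3.68 with shERK5-5, against 4.36, 4.26 and 3.83 with shNSC. Its shERK5-4 change of 0.70 ± 0.24 just passed (adjusted p = 0.0444). That call did not survive 4 of the alternatives (arrays centred or quantile normalized, a replicate block, the line fitted alone). It was also lost on leaving out 9 of the 18 arrays in turn, with an adjusted p of up to 0.205, without CHLA-90 shNSC replicate 3. Of the arrays compared, shNSC replicate 2 (0.0716) and shERK5-4 replicates 1 (0.0768), 2 (0.156) and 3 (0.0836) had the same effect on IFIH1. With shERK5-5 in CHLA-90 IFIH1 passed when shERK5-5 replicate 1 was left out (-0.76, 0.0449). DHX58, the regulator LGP2, lay between -0.02 and 0.20 in all 4 contrasts.

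MAVS, the adaptor of RIG-I and MDA5 on mitochondria, moved the other way. It had 6.98, 7.39 and 7.16 with shERK5-4 in SK-N-BE(2), and 8.09, 7.77 and 7.98 with shERK5-5, against 8.29, 7.91 and 8.02 with shNSC. The shERK5-4 arrays lay below all others of the line, with a fall of 0.90 ± 0.22 on the log2 scale against shNSC (adjusted p = 0.00332). In CHLA-90 the MAVS changes were -0.45 (adjusted p = 0.183) with shERK5-4 and -0.47 (0.176) with shERK5-5, with 1 shNSC array at 9.84 and the other 2 at 9.06 and 8.81.

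Of the transcription factors, IRF9 (TC1400010584.hg.1), the DNA-binding part of the interferon complex, rose with shERK5-4 in both lines. It had 8.48, 7.49 and 7.75 with shERK5-4 in SK-N-BE(2), and 6.68, 6.71 and 6.96 with shERK5-5, against 6.79, 6.7 and 6.37 with shNSC. In CHLA-90 its values were 8.52, 8.58 and 8.75 with shERK5-4, and 7.98, 7.28 and 7.95 with shERK5-5, against 7.34, 7.35 and 7.78 with shNSC. The shERK5-4 arrays stood above all other arrays of each line, with changes of 1.29 ± 0.23 in SK-N-BE(2) (2.44-fold, adjusted p = 0.000165) and of 1.13 ± 0.23 in CHLA-90 (2.18-fold, 0.00102). With shERK5-5 the changes were 0.16 (95% confidence interval -0.313 to 0.64) and 0.25 (-0.23 to 0.723). IRF1 and IRF7, both below the 25 percentile, lay between -0.23 and 0.35 in all 4 contrasts and were not called.

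SAMD9L and SAMD9, neighbouring genes on chromosome 7 that restrict viruses and slow growth, gave the largest rise and one of the larger falls of the set. SAMD9L (TC0700011797.hg.1) had 6.54, 6.68 and 6.72 with shERK5-4 in SK-N-BE(2), and 4.35, 4.38 and 4.16 with shERK5-5, against 4.7, 4.38 and 4.12 with shNSC. In CHLA-90 it had 5.97, 6.56 and 6.23 with shERK5-4, and 4.33, 4.21 and 4.09 with shERK5-5, against 4.26, 4.48 and 4.54 with shNSC. The shERK5-4 arrays were far above the rest in both lines, by 2.25 ± 0.18 in SK-N-BE(2) (4.75-fold, adjusted p = 2.55e-09) and by 1.83 ± 0.18 in CHLA-90 (3.55-fold, 9.64e-08). With shERK5-5 the intervals were -0.473 to 0.266 in SK-N-BE(2) and -0.586 to 0.153 in CHLA-90, so a rise of the size seen with shERK5-4 lay outside both.

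SAMD9 (TC0700011796.hg.1) had 5.35, 5.99 and 5.51 with shERK5-4 in SK-N-BE(2), and 4.23, 3.68 and 4.08 with shERK5-5, against 4.78, 4.59 and 4.16 with shNSC. CHLA-90 cells gave it 7.61, 7.79 and 7.61 with shERK5-4, and 5.54, 5.29 and 5.53 with shERK5-5, against 7.04, 7.29 and 6.7 with shNSC. The 3 CHLA-90 groups were fully separate, with shERK5-4 above and shERK5-5 below the controls. SAMD9 rose by 1.11 ± 0.21 (adjusted p = 0.000276) with shERK5-4 in SK-N-BE(2) and by 0.66 ± 0.21 (0.0282) in CHLA-90, and fell by 1.56 ± 0.21 on the log2 scale with shERK5-5 in CHLA-90 (1.97e-05). It was the only member called in opposite directions by the hairpins in a line (1 of 42, 2.38%, beside 1.40% of all probes). The rise in CHLA-90 missed the threshold with quantile normalization, and when shNSC replicate 1 (adjusted p = 0.0635) or 3 (0.156) or any shERK5-4 replicate (0.0569, 0.108 and 0.0575) was left out. In SK-N-BE(2) the shERK5-5 change was -0.51 (adjusted p = 0.123), and it passed with array weights (-0.64, 0.0128) and without shNSC replicate 3 (-0.69, 0.0496). SAMD9 and SAMD9L are close paralogs, and whether their probes share signal was not tested.

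PARP9 and PARP14, ADP-ribosyltransferase family members on chromosome 3, parted between the hairpins. PARP9 (TC0300012191.hg.1) had 8.95, 8.58 and 8.46 with shERK5-4 in SK-N-BE(2), and 7.45, 7.21 and 7.28 with shERK5-5, against 7.19, 7.14 and 7.7 with shNSC. In CHLA-90 it had 8.37, 8.58 and 8.31 with shERK5-4, and 6.59, 7.53 and 7.22 with shERK5-5, against 7.17, 7.1 and 6.81 with shNSC. The rise with shERK5-4 was nearly the same in both lines, 1.32 ± 0.21 (2.50-fold, adjusted p = 5.66e-05) and 1.39 ± 0.21 (2.63-fold, 4.86e-05), and the line difference was 0.07 (95% confidence interval -0.556 to 0.703). The shERK5-5 arrays overlapped the controls in both lines, with changes of -0.03 and 0.09. DTX3L, the ubiquitin ligase that works with PARP9 and whose gene lies next to it, changed by 0.12 (adjusted p = 0.671) with shERK5-4 in SK-N-BE(2) and by -0.35 (0.139) in CHLA-90.

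PARP14 (TC0300008561.hg.1) had 8.89, 9.51 and 9.08 with shERK5-4 in SK-N-BE(2), and 7.52, 7.82 and 7.39 with shERK5-5, against 8.52, 8.67 and 8.76 with shNSC. The CHLA-90 values were 8.94, 9.29 and 8.52 with shERK5-4, and 7.24, 7.46 and 7.06 with shERK5-5, against 8.64, 8.63 and 8.52 with shNSC. The shERK5-5 arrays lay below all others of each line, and the falls on the log2 scale were 1.07 ± 0.20 (adjusted p = 0.000553) in SK-N-BE(2), while CHLA-90 had 1.34 ± 0.20 (7.13e-05). With shERK5-4 PARP14 changed by 0.51 (adjusted p = 0.0686) and 0.32 (0.325), and the SK-N-BE(2) value passed with the replicate block (0.0344) and without shERK5-4 replicate 1 (0.65, 0.0336).

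**Figure D2:**
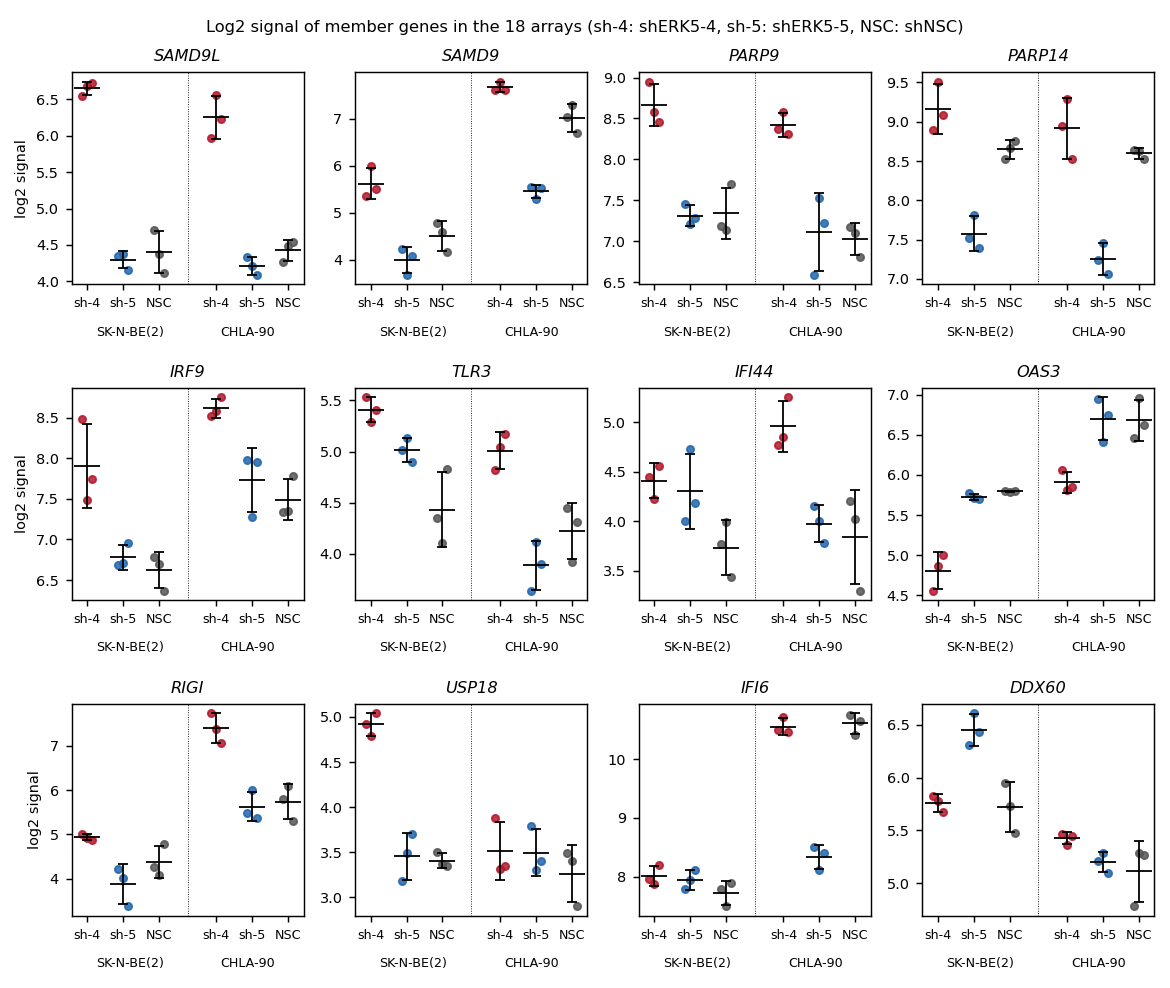
Log2 signal of 12 member genes in each of the 18 arrays (points), with the mean and SD of the 3 arrays of a group (bars), for shERK5-4, shERK5-5 and shNSC in each line. SAMD9L, PARP9 and IRF9 stand apart with shERK5-4 in both lines, PARP14 with shERK5-5 in both lines, and IFI6 with shERK5-5 in CHLA-90.

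IFI44 and IFI44L, neighbouring genes on chromosome 1, were both called with shERK5-4 in SK-N-BE(2), and IFI44 without IFI44L in CHLA-90. IFI44 (TC0100008816.hg.1) had 4.45, 4.22 and 4.56 with shERK5-4 in SK-N-BE(2), and 4, 4.73 and 4.18 with shERK5-5, against 3.77, 3.99 and 3.44 with shNSC. In CHLA-90 it had 4.77, 4.85 and 5.25 with shERK5-4, and 4.15, 4 and 3.78 with shERK5-5, against 4.2, 4.02 and 3.3 with shNSC. IFI44 rose with shERK5-4 in both, by 0.68 ± 0.23 (adjusted p = 0.0353) and 1.12 ± 0.23 (0.00117). The first of these missed the threshold with array weights, and when shNSC replicate 1 (adjusted p = 0.0706) or 3 (0.169) or shERK5-4 replicate 1 (0.0801) or 3 (0.111) was left out. With shERK5-5 in SK-N-BE(2) the IFI44 change of 0.57 was not called (adjusted p = 0.124), but it passed with array weights (0.67, 0.0259).

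IFI44L, a probe below the 25 percentile, had 4.47, 4.51 and 4.24 with shERK5-4 in SK-N-BE(2), and 3.4, 3.93 and 4.07 with shERK5-5, against 3.08, 2.89 and 3.37 with shNSC. Both hairpin groups lay above the controls there, by 1.29 ± 0.23 (adjusted p = 0.000139) and 0.69 ± 0.23 (0.0496). The shERK5-5 call on IFI44L was lost on leaving out 13 of the 18 arrays in turn. Among the arrays compared these were shNSC replicates 1 (adjusted p = 0.125) and 2 (0.206) and shERK5-5 replicates 2 (0.162) and 3 (0.222). In CHLA-90 IFI44L had 3.57, 3.01 and 3.91 with shERK5-4, and 3.25, 3.31 and 3.05 with shERK5-5, against 3.3, 3.39 and 3.95 with shNSC, and the groups overlapped.

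USP18, the protease that removes ISG15 from proteins and damps interferon signalling, rose in 1 line. It had 4.92, 4.79 and 5.04 with shERK5-4 in SK-N-BE(2), and 3.18, 3.49 and 3.7 with shERK5-5, against 3.5, 3.37 and 3.35 with shNSC. The rise with shERK5-4 was 1.51 ± 0.20 (2.85-fold, adjusted p = 4.12e-06), also for a probe below the 25 percentile. In CHLA-90 USP18 had 3.88, 3.31 and 3.35 with shERK5-4, and 3.79, 3.3 and 3.4 with shERK5-5, against 3.49, 3.4 and 2.9 with shNSC. The shERK5-4 change there was 0.25 (adjusted p = 0.471), and the line difference was -1.26 ± 0.28 (0.00666). ISG15, the ubiquitin-like modifier, its ligase HERC5 and the related HERC6 were called with neither hairpin, at changes between -0.37 (HERC6) and 0.41 (ISG15).

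IFI6, a mitochondrial and endoplasmic reticulum protein that protects cells from virus, had the largest fall of the set (TC0100013445.hg.1). In CHLA-90 IFI6 had 10.5, 10.72 and 10.46 with shERK5-4, and 8.5, 8.11 and 8.4 with shERK5-5, against 10.76, 10.42 and 10.66 with shNSC. It fell with shERK5-5 by 2.28 ± 0.17 on the log2 scale, to 0.206 of the control level (adjusted p = 1.24e-08), while the shERK5-4 arrays overlapped the controls (-0.05, 95% confidence interval -0.408 to 0.302). In SK-N-BE(2) IFI6 had 7.95, 7.87 and 8.2 with shERK5-4, and 7.78, 7.94 and 8.11 with shERK5-5, against 7.79, 7.49 and 7.89 with shNSC. The groups overlapped there, with changes of 0.28 (adjusted p = 0.278) and 0.22 (0.525).

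Among the IFIT genes, whose proteins bind viral RNA, 2 of 4 were called with a hairpin in a line, beside the 39.7% of all probes given above. IFIT1 had 5.61, 5.49 and 5.1 with shERK5-4 in CHLA-90, and 4.13, 3.53 and 4.2 with shERK5-5, against 4.96, 4.74 and 4.91 with shNSC. The 3 groups were separate, but only the fall with shERK5-5 passed (-0.92 ± 0.21, adjusted p = 0.00561; with shERK5-4 0.53, 0.0921, or 0.0222 with array weights). In SK-N-BE(2) IFIT1 had 3.36, 3.54 and 4.04 with shERK5-4, and 3.37, 2.9 and 3.44 with shERK5-5, against 2.95, 3.17 and 2.96 with shNSC. It rose there with shERK5-4 (0.62 ± 0.21, adjusted p = 0.0359), a change that missed the threshold when shNSC replicate 1 (0.104) or 3 (0.101) or shERK5-4 replicate 3 (0.2) was left out. IFIT3 had 5.48, 6.22 and 5.72 with shERK5-4 in CHLA-90, and 4.97, 4.68 and 5.72 with shERK5-5, against 5.17, 5.01 and 4.78 with shNSC. It rose with shERK5-4 (0.82 ± 0.23, adjusted p = 0.0129), which rested on shNSC replicate 3 (0.0668 without it) and shERK5-4 replicate 2 (0.106 without it). IFIT2 and IFIT5 were not called. IFIT5 passed in CHLA-90 with shERK5-4 under array weights (0.41, adjusted p = 0.0484), and in SK-N-BE(2) with shERK5-4 when shERK5-4 replicate 1 was left out (-0.62, 0.0246).

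OAS3 (TC1200008920.hg.1), a synthase of the 2′-5′ oligoadenylates that switch on RNA decay, was the member that fell with shERK5-4 in both lines. It had 4.56, 4.87 and 5 with shERK5-4 in SK-N-BE(2), and 5.77, 5.71 and 5.7 with shERK5-5, against 5.8, 5.79 and 5.8 with shNSC. In CHLA-90 it had 6.06, 5.81 and 5.85 with shERK5-4, and 6.94, 6.41 and 6.74 with shERK5-5, against 6.46, 6.96 and 6.62 with shNSC. The shERK5-4 arrays lay below all others of each line, by 0.99 ± 0.17 (adjusted p = 0.000144) and 0.77 ± 0.17 (0.00248) against shNSC on the log2 scale. Its neighbours on chromosome 12, OAS1 and OAS2, and the related OASL were not called, with changes between -0.49 (OAS1) and 0.21 (OAS2). DDX60, a helicase linked to RIG-I signalling, had 5.83, 5.78 and 5.67 with shERK5-4 in SK-N-BE(2), and 6.31, 6.61 and 6.43 with shERK5-5, against 5.95, 5.73 and 5.48 with shNSC. It rose with shERK5-5 in that line (0.73 ± 0.17, adjusted p = 0.00445), and in CHLA-90 the change was 0.09 (0.804).

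MX1 and ISG15 were among the 24 members called with neither hairpin in either line. MX1, which traps viral nucleocapsids, changed by 0.02, -0.15, -0.08 and -0.04 (in the order SK-N-BE(2) shERK5-4 and shERK5-5, then CHLA-90 shERK5-4 and shERK5-5). ISG15 changed by 0.01, -0.35, 0.08 and 0.41. IFI27, IFI35, RSAD2, CMPK2, XAF1, ISG20, BST2, TRIM22, MX2 and the IFITM proteins, which block virus entry, were not called either. BST2, TRIM22, MX2 and OAS2 had mean signals below the limit used for dim probes (3.93 on the log2 scale). MX1 lay below that limit in SK-N-BE(2), at means of 3.71 with shNSC, 3.73 with shERK5-4 and 3.55 with shERK5-5. At such signals the lack of a call says little about a fall. The limit was set over the arrays of both lines, whose medians differ. In CHLA-90 with shNSC, MX1 (4.35), IFI27 (4.30), ISG15 (4.23) and IFITM3 (4.21) lay above it but below that line's array medians (6.35 to 6.43). Whether a fall of these would register there was not tested. Over the 24 members called with none of the hairpins, changes ran from -0.63 (IFITM2 with shERK5-5 in SK-N-BE(2)) to 0.55 (CMPK2 with shERK5-4 in CHLA-90), and adjusted p from 0.0809 to 0.995. The CMPK2 value passed with the replicate block (0.0372) and with array weights (0.022), and the IFITM2 value with array weights (0.0197) and without SK-N-BE(2) shERK5-4 replicate 1 (0.0483) or 2 (0.0138). IFITM3 passed with shERK5-4 in SK-N-BE(2) when shERK5-4 replicate 3 was left out (-0.58, 0.0351). IFITM2 varied widely with shERK5-4 in SK-N-BE(2), at 8.48, 6.48 and 7.69, against 7.55, 7.63 and 7.48 with shNSC. The IFITM genes are near-identical in parts, and whether their probes share signal was not tested.

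With shERK5-4, 7 members moved the same way in both lines (16.7% of 42, against 10.4% of all probes): 6 rose (14.3%, against 5.43%) and 1, OAS3, fell (2.38%, against 5.00%). These 6 were 6 of the 9 that rose in SK-N-BE(2) and 6 of the 10 that rose in CHLA-90. With shERK5-5, 0 members rose in both lines (1.94% of all probes did) and 1, PARP14, fell in both (2.38%, against 2.63%, and against 4.58% for either direction). The lines share no arrays, while the contrasts within a line share their 3 shNSC arrays. Leaving out any 1 array, the number called alike in both lines stayed between 6 and 7 with shERK5-4 and between 1 and 2 with shERK5-5 (2 without SK-N-BE(2) shNSC replicate 3).

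The effect of a hairpin itself differed between the lines in 2 members with shERK5-4 (4.76%, against 7.23% of all probes) and in 3 with shERK5-5 (7.14%, against 5.39%), by the interaction term of the model. The change against shNSC was lower in CHLA-90 than in SK-N-BE(2) for USP18 and IFI44L with shERK5-4, and for IFI6, IFIT1 and SAMD9 with shERK5-5. IFIT1 was dim in SK-N-BE(2), at a mean of 3.03 with shNSC, so a fall there may not have registered. SAMD9 also had a lower mean there with shNSC, 4.51 against 7.01 in CHLA-90, and whether low signal limited its fall was not tested. For the shared members the line differences of the shERK5-4 effect were -0.42 (95% confidence interval -0.943 to 0.103) for SAMD9L, -0.16 (-0.833 to 0.513) for IRF9 and 0.21 for OAS3, and that of the shERK5-5 effect on PARP14 was -0.27 (-0.853 to 0.313).

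**Figure D3:**
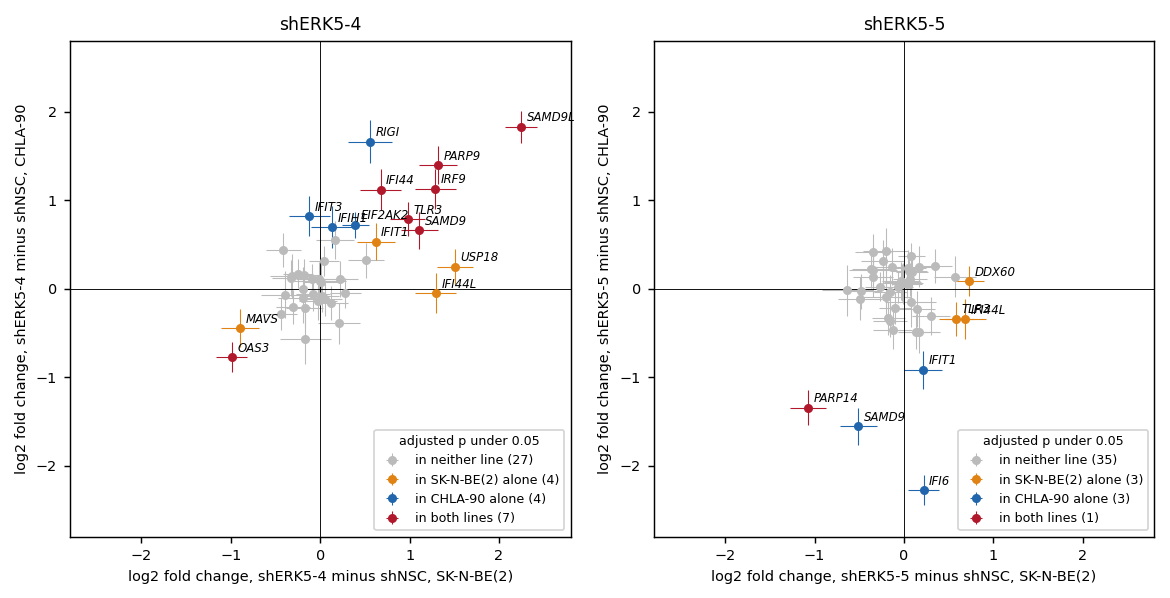
Log2 fold change of the 42 members in CHLA-90 (vertical axis) against that in SK-N-BE(2) (horizontal axis), with standard errors, for shERK5-4 (left) and shERK5-5 (right). Red points passed the threshold in both lines: 7 with shERK5-4, from OAS3 at the lower left to SAMD9L at the upper right, and 1 with shERK5-5, PARP14.

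Set against each other directly, the hairpins differed in 11 of 42 members in SK-N-BE(2) (26.2%, against 24.5% of all probes) and 14 in CHLA-90 (33.3%, against 27.2%). Relative to shERK5-5, SK-N-BE(2) cells with shERK5-4 had 7 members higher (11.8% of all probes) and 4 lower (12.6%), and CHLA-90 cells 13 higher (14.8%) and 1 lower (12.4%). IRF9, PARP14, PARP9, RIGI, SAMD9 and SAMD9L were higher in both lines (14.3%, against 6.28% of all probes) and OAS3 was lower in both (2.38%, against 5.38%). SAMD9L differed by 2.35 ± 0.18 in SK-N-BE(2) (adjusted p = 8.56e-10) and 2.04 ± 0.18 in CHLA-90 (1.33e-08), SAMD9 by 1.62 and 2.22, and PARP14 by 1.58 and 1.66. RIGI differed by 1.06 ± 0.25 (adjusted p = 0.00219) and 1.77 ± 0.25 (9.64e-06), IRF9 by 1.12 and 0.88, and OAS3 by -0.92 and -0.79. IFI6 (2.22 ± 0.17, adjusted p = 2e-09), IFIT1 (1.45), IFIH1 (1.19), TLR3 (1.12), IFI44 (0.98), CMPK2 (0.85) and IFIT3 (0.68) were higher with shERK5-4 in CHLA-90 alone, and USP18 (1.46) in SK-N-BE(2) alone. MAVS (-0.77), DDX60 (-0.69) and IFITM3 (-0.53) were lower with shERK5-4 in SK-N-BE(2). IFIT3 lost its call in 4 of 18 fits with 1 array left out, without shERK5-4 replicate 2 (adjusted p = 0.179) or 3 (0.0521) or shERK5-5 replicate 1 (0.0938) or 2 (0.164). IFITM3 lost it without shERK5-4 replicate 1 (0.113) or 2 (0.127) or shERK5-5 replicate 1 (0.0658) or 2 (0.16), and MAVS without shERK5-4 replicate 1 (0.051). MAPK7 itself was lowered to a similar degree by the hairpins, as given above.

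Among the other genes of the pathway, JAK1, the kinase shared by the interferon receptors, fell most. It had 7.59, 6.91 and 7.3 with shERK5-4 in SK-N-BE(2), and 10.52, 10.48 and 10.51 with shERK5-5, against 11.09, 10.84 and 11.09 with shNSC. The CHLA-90 arrays read 9.4, 9.13 and 9.25 with shERK5-4, and 12.18, 12.17 and 12.32 with shERK5-5, against 12.52, 12.51 and 12.53 with shNSC. The shERK5-4 arrays were far below the others, with a fall of 3.74 ± 0.17 on the log2 scale in SK-N-BE(2) (13.4-fold lower, adjusted p = 3.31e-13) and 3.26 ± 0.17 in CHLA-90 (9.58-fold lower, 5.62e-12). With shERK5-5 the changes were -0.50 (adjusted p = 0.0485) and -0.30 (0.273). The first of these was lost with arrays centred (0.0602) or the line fitted alone (0.112), and on leaving out 14 of the 18 arrays in turn, with an adjusted p of up to 0.152 without SK-N-BE(2) shNSC replicate 1. Its part in the changes of the members with shERK5-4 was not tested.

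The JAK-STAT list had 11 of 12 genes measured. With shERK5-4, 2 rose and 1 fell in each line (27.3%, against 23.9% of all probes in SK-N-BE(2) and 18.3% in CHLA-90), and with shERK5-5, 0 rose and 1 fell in SK-N-BE(2) and 1 rose and 0 fell in CHLA-90 (9.09%, against 12.8% and 12.7%). JAK2 rose with shERK5-4 in SK-N-BE(2) (0.89, adjusted p = 0.011) and CHLA-90 (0.92, 0.012), TYK2 in SK-N-BE(2) (1.10, 0.000532) and STAT3 in CHLA-90 (0.82, 0.00866). The JAK2 calls were lost without SK-N-BE(2) shNSC replicate 2 (0.0694) or shERK5-4 replicate 1 (0.0516), and without CHLA-90 shERK5-4 replicate 2 (0.0587) or 3 (0.0695), and that of STAT3 without CHLA-90 shNSC replicate 2 (0.0598) or shERK5-4 replicate 2 (0.0534). With shERK5-5 JAK2 rose in CHLA-90 as well (0.79, adjusted p = 0.0415), and in SK-N-BE(2) its change was 0.08 (0.916). The CHLA-90 shERK5-5 call missed the threshold with the replicate block, with array weights, and when any shNSC replicate (0.123, 0.0799 and 0.0905), shERK5-5 replicate 1 (0.168) or 2 (0.109) or SK-N-BE(2) shNSC replicate 1 (0.0508) was left out.

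Of 26 measured interferons and receptors, 3 rose and 1 fell with shERK5-4 in SK-N-BE(2), and 2 rose and 1 fell in CHLA-90, while shERK5-5 raised 1 and lowered 0 in each line. The shares with shERK5-4 were 15.4% in SK-N-BE(2), against 23.9% of all probes, and 11.5% in CHLA-90, against 18.3%, and with shERK5-5 3.85% in each, against 12.8% and 12.7%. IFNAR2, the signalling chain of the type I receptor, had 11.49, 10.92 and 11.7 with shERK5-4 in SK-N-BE(2), and 10.04, 10.21 and 9.96 with shERK5-5, against 9.96, 9.7 and 10.04 with shNSC. In CHLA-90 IFNAR2 had 11.23, 10.9 and 10.83 with shERK5-4, and 10, 10.43 and 10.37 with shERK5-5, against 9.93, 9.64 and 10.07 with shNSC. The shERK5-4 arrays stood above all others in each line, with rises of 1.47 ± 0.20 (adjusted p = 5.79e-06) and 1.11 ± 0.20 (0.000282). IL10RB, a chain of the type III interferon and interleukin-10 receptors, rose with shERK5-4 by 0.71 (0.0173) in SK-N-BE(2), and by more, 1.47 (2.75e-05), in CHLA-90. The SK-N-BE(2) rise of IL10RB rested on shNSC replicate 3 (0.0878 without it) and shERK5-4 replicate 1 (0.0706 without it). IFNGR2, of the interferon gamma receptor, fell by 0.52 (0.0273) and 0.66 (0.00781) on the log2 scale, and in SK-N-BE(2) this missed the threshold when any shNSC replicate (0.0931, 0.0567 and 0.051) or shERK5-4 replicate 1 (0.147) was left out, and with quantile normalization (0.0516). IFNGR1, the other chain of that receptor, rose with shERK5-5 in SK-N-BE(2) (0.58, adjusted p = 0.0205), a call that missed the threshold with the line fitted alone and when shNSC replicate 2 (0.152) or shERK5-5 replicate 3 (0.117) was left out. The remaining rises were of interferon genes, IFNA16 with shERK5-4 in SK-N-BE(2) and IFNA14 with shERK5-5 in CHLA-90. These calls were lost on leaving out 14 and 5 of the 18 arrays in turn. IFNB1 was not called with either hairpin, at group means of 3.55 to 4.13.

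**Figure D4:**
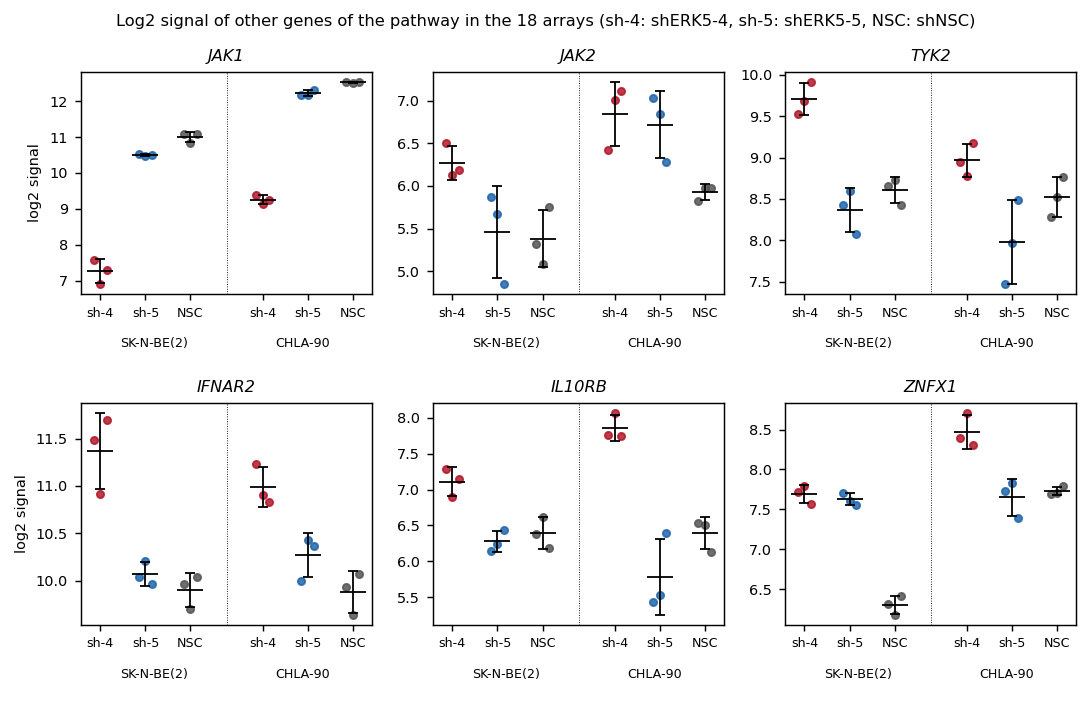
Log2 signal of JAK1, JAK2, TYK2, IFNAR2, IL10RB and ZNFX1 in each of the 18 arrays (points), with the mean and SD of the 3 arrays of a group (bars). JAK1 is lowest with shERK5-4 in both lines (9.13 to 9.4 in CHLA-90 and 6.91 to 7.59 in SK-N-BE(2)), where IFNAR2 is highest.

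The list of 21 measured genes of nucleic acid sensing had 1 rise and 3 falls with shERK5-4 in SK-N-BE(2) and 3 rises and 0 falls in CHLA-90, with 1 rise with shERK5-5 in SK-N-BE(2) and no call in CHLA-90 (0 by limma, with 3 at an unadjusted p under 0.05). The shares with shERK5-4, 19.0% in SK-N-BE(2) and 14.3% in CHLA-90, stood beside 23.9% and 18.3% of all probes. TRAF6, a ligase downstream of Toll-like receptors, fell with shERK5-4 by 0.75 on the log2 scale in SK-N-BE(2) (adjusted p = 0.00194). IFI16, a DNA sensor, fell there by 0.77 (0.00135) and rose in CHLA-90 by 0.64 (0.00877), a line difference of 1.41 ± 0.24 (0.00055). NLRX1, a mitochondrial NOD-like protein, rose with shERK5-4 in SK-N-BE(2) (0.54, adjusted p = 0.0156), which was lost when shNSC replicate 2 (0.0638) or 3 (0.0538) or shERK5-4 replicate 2 (0.0603) or 3 (0.0513) was left out. TICAM1, the adaptor of TLR3, was not called, with CHLA-90 changes of 0.48 with shERK5-4 (adjusted p = 0.0541) and 0.38 with shERK5-5 (0.16). Of 33 further interferon-stimulated genes, 5 rose and 4 fell with each hairpin in SK-N-BE(2), and 3 rose and 3 fell with shERK5-4 and 1 rose and 1 fell with shERK5-5 in CHLA-90. These were 27.3% with each hairpin in SK-N-BE(2) (against 23.9% and 12.8% of all probes), and 18.2% and 6.06% in CHLA-90 (against 18.3% and 12.7%). ZNFX1, a helicase that binds viral RNA, rose in SK-N-BE(2) with shERK5-4 (1.39 ± 0.16, adjusted p = 6.09e-07) and shERK5-5 (1.33 ± 0.16, 3.26e-06), and in CHLA-90 with shERK5-4 (0.74, 0.00176). LY6E and LGALS3BP rose in SK-N-BE(2) with shERK5-4 (1.14 and 0.86) and with shERK5-5 (1.05 and 1.26), with adjusted p of at most 0.00263. LGALS3BP was also called higher with shERK5-5 in CHLA-90, at a mean of 10.24 against 9.53 with shNSC. That call was lost without CHLA-90 shNSC replicate 1 (0.0729) or 2 (0.0997) or shERK5-5 replicate 1 (0.0747) or 2 (0.0668). LY6E, at 4.84 in CHLA-90 with shNSC against 11.23 in SK-N-BE(2), was called with neither hairpin in CHLA-90. TRIM14, an adaptor that works with MAVS, fell with shERK5-4 by 2.71 ± 0.21 (2.53e-09) in SK-N-BE(2) and by 0.97 ± 0.21 (0.00224) in CHLA-90 on the log2 scale.

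Under the control hairpin the lines differed in many members, as they did in most probes. Array medians were higher in CHLA-90, so arrays were first centred on their medians, which left the median difference of all probes at -0.27, against 0.45 with the values as deposited. After centring, 24 of 42 members differed (57.1%, against 56.3% of all probes), 8 higher and 16 lower in CHLA-90 (19.2% and 37.1% of all probes). With the deposited values 28 members differed, 23 higher and 5 lower (48.4% and 11.6% of all probes). Direction therefore depended on scaling for many members, and 8 higher and 5 lower ones passed with the same sign in both. The 5 largest rises after centring were HERC5 (3.15), IFI6 (2.17), SAMD9 (1.78), OAS1 (1.59) and IFIT1 (1.13), and each was larger in the deposited values. The 5 largest falls were IFITM3 (-5.08, or -4.36 as deposited), IFITM2 (-3.60, or -2.88), IFITM1 (-1.89, or -1.17), IFIT5 (-1.42, or -0.70) and DDX60 (-1.32, or -0.61). Mean deposited signals for HERC5 were 6.70 ± 0.20 in CHLA-90, against 2.83 ± 0.31 in SK-N-BE(2) (SD, n = 3 each). For IFITM3 they were 4.21 ± 0.19 in CHLA-90, against 8.57 ± 0.11 in SK-N-BE(2).

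**Figure D5:**
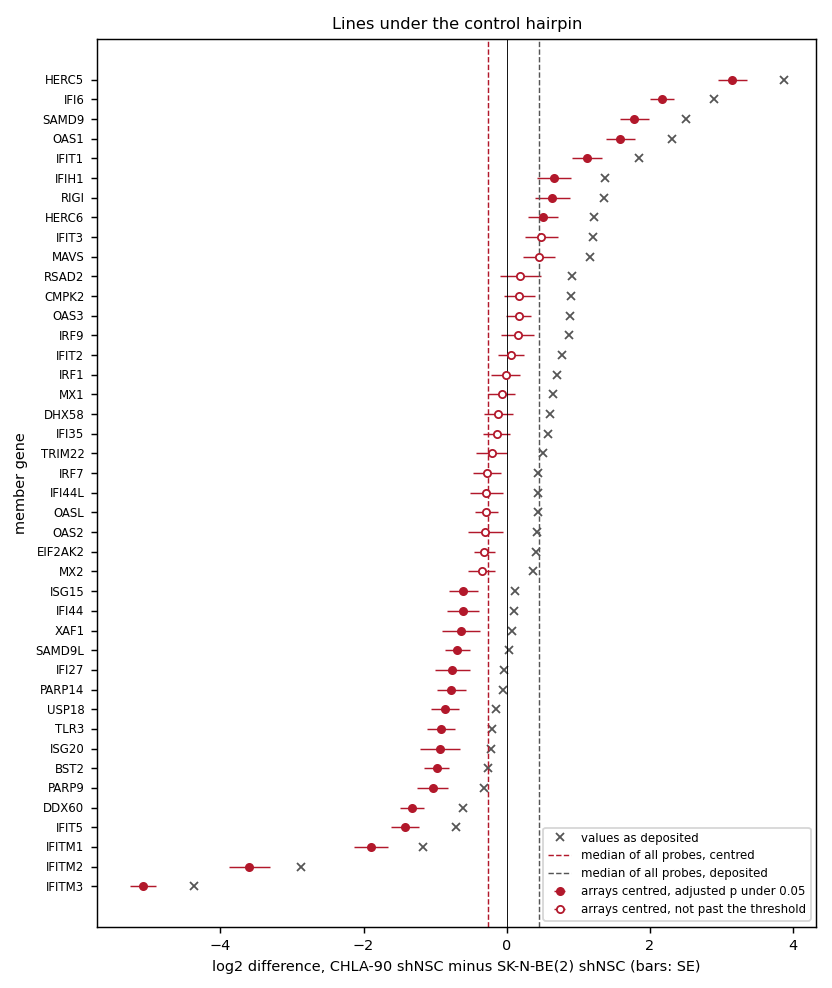
Log2 difference of the 42 members between CHLA-90 and SK-N-BE(2), both with shNSC, sorted by size. Circles with standard errors are from arrays centred on their medians (filled where the adjusted p was under 0.05), crosses from the values as deposited, and dashed lines the median of all probes (-0.27 centred and 0.45 deposited); IFITM3 lies lowest and HERC5 highest on both scales.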

How the data were processed

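Biotin-labelled RNA of 18 samples was hybridised to 1 array each, per the labels' protocols. Each deposited value is a log2 signal of 1 probe, summarised and then normalized by the authors. Its log base was read from the range of values, and for the software, method and genome build there is nothing stated (not given in the sources used here). Medians differ between the lines. Arrays have no read depth, so precision rests on the number of arrays.

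Of 21448 probes, 17709 had 1 gene symbol and 3739 none in the array's annotation, and all 42 member symbols matched the current gene table by gene number. A single limma model (version 3.58.1, R 4.3.3), with 1 mean per group, lmFit and eBayes (12 residual and 9.588 prior degrees of freedom), covered all probes. Benjamini-Hochberg adjustment ran over every probe tested in a contrast, and "called" means an adjusted p under 0.05. Lines under shNSC were compared after each array was centred on its median. Errors of changes are standard errors. The fit was tested on simulated data. Figures were drawn with matplotlib 3.10.9 (Python 3.11.15).

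The members, the 4 lists of other pathway genes and the tests were chosen with earlier results of these data known. Each member called with a hairpin against shNSC is given array by array, at least in the lines where it was called. From each list up to 4 genes are named, those of smallest p for the mean of the hairpins in either line, and a few others are named beside them. Alternatives were other scalings, a filter on dim probes, a replicate block, fits to 1 line, other variance models, array weights, averaged probes and leaving out each array.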

Additional observations from a re-analysis of the deposited data

Results flagged for a closer look

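The effect of a hairpin differed between the lines, by an interaction term in the limma model (CHLA-90 minus SK-N-BE(2)), in 5 members. With shERK5-4 these were 2 of 42 (4.76%, against 7.23% of all probes). The difference for USP18 was -1.26, from a change of 0.25 in CHLA-90 and 1.51 in SK-N-BE(2) (adjusted p = 0.00666), and that for IFI44L was -1.34, from -0.05 in CHLA-90 and 1.29 in SK-N-BE(2) (0.0109). With shERK5-5 they were 3 of 42 (7.14%, against 5.39% of all probes). The IFI6 difference was -2.50, from -2.28 in CHLA-90 and 0.22 in SK-N-BE(2) (3.22e-06). The IFIT1 difference was -1.13, from -0.92 and 0.21 (0.0293), and the SAMD9 difference -1.04, from -1.56 and -0.51 (0.039). In SK-N-BE(2) IFIT1 averaged 3.03 with shNSC and 3.24 with shERK5-5, below the limit used for dim probes (3.93). A fall of IFIT1 in that line may therefore not have registered, and the part of low signal in its line difference was not tested. SAMD9 averaged 4.51 with shNSC and 4.00 with shERK5-5 in SK-N-BE(2), above but near that limit, against 7.01 with shNSC in CHLA-90. The part of low signal in the SAMD9 line difference was not tested either. The IFIT1 call was lost in 7 of 18 fits with 1 array left out (adjusted p up to 0.0865, without SK-N-BE(2) shERK5-5 replicate 3), and the SAMD9 call in 10 of 18 (up to 0.104, without SK-N-BE(2) shERK5-5 replicate 1) and with the replicate block.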

How the results depend on the processing

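Counts of called members kept to within 1.5 times of the reported ones under other scalings, the replicate block, fits to 1 line, trend and robust estimation and averaged probes (each member has 1 probe), with an exception: quantile normalization gave 5 line differences of the shERK5-5 effect, against 3. With dim probes left out, 1 line difference of the shERK5-4 effect passed, against 2. It was another member, RIGI, with a higher change in CHLA-90 (1.10, adjusted p = 0.0495), and USP18 and IFI44L, both lower in the reported fit, were among the probes removed. Array weights gave 7 calls with shERK5-5 in SK-N-BE(2) (4 higher and 3 lower, against 4 calls), 2 shared by both lines with shERK5-5 (against 1) and 4 line differences of the shERK5-4 effect (against 2). The cause was not tested.

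Leaving out 1 array at a time gave 9 to 12 calls in SK-N-BE(2) with shERK5-4 and 2 to 5 with shERK5-5, and 8 to 11 and 4 to 5 in CHLA-90. For the mean of the hairpins the counts were 5 to 10 in SK-N-BE(2) (5 without shNSC replicate 1 or 3) and 3 to 8 in CHLA-90 (3 without shNSC replicate 3). Between the hairpins they were 9 to 12 and 13 to 16, and both lines shared 6 to 7 with shERK5-4 and 1 to 2 with shERK5-5. Line differences numbered 2 to 3 with shERK5-4 and 1 to 4 with shERK5-5 (1 without SK-N-BE(2) shERK5-5 replicate 3 or CHLA-90 shNSC replicate 1), and 19 to 24 members differed under shNSC. The low count of 2 with shERK5-5 in SK-N-BE(2) came without shNSC replicate 1 or 2, shERK5-4 replicate 3, shERK5-5 replicate 2 or 3, CHLA-90 shNSC replicate 1, CHLA-90 shERK5-4 replicate 1 or CHLA-90 shERK5-5 replicate 3.

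Among members called between the lines under shNSC after centring, the uncentred values turned the sign of ISG15 (0.11), IFI44 (0.11), XAF1 (0.08) and SAMD9L (0.027). None of these was called as deposited. Other members, not called after centring, turned sign too, and some of them were called higher as deposited. Examples by limma were MX1 (-0.07 centred, 0.65 deposited, adjusted p = 0.00482), IRF1 (-0.01 and 0.71, 0.00483) and EIF2AK2 (-0.315 and 0.40, 0.0244). The replicate block gave, with shERK5-4, 12 calls in SK-N-BE(2) and 11 in CHLA-90, and with shERK5-5 3 and 4. Same-numbered arrays of different groups had deviations that correlated by -0.126 to 0.204 in SK-N-BE(2), while the range in CHLA-90 was -0.056 to 0.204, and 3 of 9 and 4 of 9 such pairs exceeded 0.1. Since not every pair did, the numbers were not taken as pairs. All 3 pairs of replicate 3 in each line did exceed 0.1, and an array correlated best with its own number in 10 of 18 comparisons in each line, which is a hint from the data of shared numbers and not from the design. Signal over background is unknown, and 9 members were dim.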

Other observations

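Further interferon-stimulated genes outside the list of members moved with 1 or both hairpins. These were chosen after their values were seen. PARP12, an antiviral ADP-ribosyltransferase, had 8.45, 8.31 and 8.92 with shERK5-4 in SK-N-BE(2), and 8, 7.79 and 7.67 with shERK5-5, against 9.03, 9.43 and 8.89 with shNSC. It fell there with shERK5-5 (-1.30, adjusted p = 0.000582 by limma), and with shERK5-4 (-1.06, 0.00276) and shERK5-5 (-0.92, 0.0143) in CHLA-90. The last call was lost without CHLA-90 shNSC replicate 1 (0.0701) or 3 (0.052) or shERK5-5 replicate 2 (0.0503) or 3 (0.0797). UBE2L6, the conjugating enzyme of ISG15, fell with shERK5-4 in SK-N-BE(2) (-1.59, 1.8e-05), and so did PLSCR1, a phospholipid scramblase (-1.22, 5.07e-05). In CHLA-90 the shERK5-4 changes were -0.55 for UBE2L6 and -0.28 for PLSCR1.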
